A study of Mus musculus with 16 samples.

Results

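A list of 10 genes commonly used as markers of alternatively activated and of resident macrophages was followed through 4 sorted myeloid populations of the healing bone-tendon interface. The list holds *Mrc1*, *Cd163*, *Folr2*, *Lyve1*, *Stab1*, *Retnla*, *Chil3*, *Il4ra*, *Cbr2* and *Mgl2*, which were chosen by name. Of these 10 genes, 9 had a row among the 20200 genes of the count table, and *Retnla* was not analysed here. All 9 passed the filter of a minimum level, set as a group mean of 3 CPM (counts scaled to a common library total) reached in any of the 8 groups, by which 11998 genes were tested. *Folr2* passed through a single group and *Cd163* only through groups of day 14, so that they had to differ between groups. No count over the members is offered as support.

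Anterior cruciate ligament reconstruction (ACLR), in which a tendon graft is drawn through drilled bone tunnels, was performed on male wild-type C57BL/6 mice of 12 weeks. Interface tissue was taken 1 and 14 days after the operation, and all groups shared strain, genotype and operation, so that no unoperated tissue enters any comparison. Live CD45+ CD11b+ cells negative for lineage markers were sorted into F4/80+ CD9+ macrophages, F4/80+ CD9- CX3CR1+ macrophages (CX3CR1+ macrophages below), F4/80- myeloid cells and Ly6G+ neutrophils, the first 3 being Ly6G-. Each population had 2 libraries on each day, 16 in all, and each library was a pool of 5 to 7 mice. The 16 libraries came from 30 mice in all, so that the populations of a day were sorted from shared pools and are not independent of each other. The p-values therefore measure the spread between pools, and an exact permutation test of 2 libraries against 2 cannot go below 0.333, so that tests come from a fit over all genes. A gene was called where edgeR's quasi-likelihood test gave a Benjamini-Hochberg adjusted p under 0.05 and the log2 fold change was at least 1 in size; SE is its standard error. Total counts ran from 10587857 to 19814119 on day 1 and from 9233952 to 12721779 on day 14.

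Interleukin-4 and interleukin-13 act through a receptor whose signalling chain is encoded by *Il4ra*, and through the transcription factor STAT6 they induce a program called alternative activation. In mouse macrophages that program includes the mannose receptor *Mrc1*, the galactose-type lectin *Mgl2*, the chitinase-like protein *Chil3* (Ym1) and the secreted protein *Retnla*. The scavenger and endocytic receptors *Cd163*, *Stab1*, *Lyve1* and *Folr2*, and the carbonyl reductase *Cbr2*, are known as markers of macrophages that reside in tissues, often along blood vessels. *Lyve1* and *Stab1* are also expressed by endothelium, *Mgl2* by dendritic cells, and *Chil3* by neutrophils and monocytes.

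Among the Ly6G- populations *Adgre1* followed the F4/80 gate, but the markers of other cells moved with population and day. *Cd9* and *Cx3cr1*, which separate the macrophage gates, were not examined here. *Adgre1*, which encodes F4/80, lay between 120 and 216 CPM in the CD9+ and CX3CR1+ libraries and between 8.40 and 13.8 CPM in the F4/80- libraries. The summed CPM of 9 eosinophil markers was 663 and 675 in day 1 CD9+ libraries but 7233 and 11740 in day 14 CD9+ libraries, against 35.5 to 131 in every CX3CR1+, F4/80- and neutrophil library. None of these 9 genes was at 3 counts or fewer in both CD9+ libraries of a day, and in CD9+ macrophages 8 of the 9 rose from day 1 to day 14. The sum of 10 neutrophil markers was 18480 and 5675 CPM in day 1 CD9+ libraries, 20460 and 13670 CPM in day 14 CD9+ libraries, 504 to 1098 CPM in CX3CR1+ macrophages, 32990 to 43370 CPM in F4/80- cells and 53630 to 115700 CPM in neutrophils. Among CX3CR1+ libraries *Ly6g*, the marker of the neutrophil gate, had 1 to 7 counts. In CD9+ macrophages, also sorted as Ly6G-, *Ly6g* was called higher than in CX3CR1+ macrophages on both days and rose from day 1 to day 14. Between these populations 8 of the 10 neutrophil markers were higher in CD9+ macrophages on each day. *Mmp8* was lower on day 1, and *Csf3r* and *Mmp8* were lower on day 14. Over time in CD9+ macrophages 2 of the 10 rose (*Ly6g* and *Retnlg*), 1 fell (*Mmp8*) and 7 were not called. The 6 basophil and mast cell markers in the table summed to 968 to 1891 CPM in F4/80- cells, 104 to 342 CPM in CD9+ macrophages and at most 10.2 CPM elsewhere. The 7 dendritic cell markers summed to 40.4 to 70.2 CPM in F4/80- cells and to 11.9 and 13.9 CPM on day 1 against 52.8 and 58.9 CPM on day 14 in CX3CR1+ macrophages. The 5 stromal markers summed to 4.58 and 3.79 CPM on day 1 against 34.25 and 43.55 CPM on day 14 in CD9+ macrophages, to 1.71 and 1.72 CPM against 2.69 and 80.4 CPM in CX3CR1+ macrophages, and to 3.84 to 49.4 CPM elsewhere. Of these, *Col3a1* and *Dcn* were at 3 counts or fewer in all CD9+ and CX3CR1+ libraries of day 1. The 3 osteoclast markers in the table summed to 185 and 96.8 CPM on day 1 against 219 and 231 CPM on day 14 in CD9+ macrophages, to 28.8 and 20.05 CPM against 8.77 and 7.40 CPM in CX3CR1+ macrophages, and to at most 15.7 CPM elsewhere. The 2 CD9+ libraries of day 1 were the least alike of any group, with an SD of 0.912 for their log2 differences over genes against 0.382 to 0.625 in the other groups. In a bulk sample fewer cells of a type and less RNA per cell cannot be told apart, and the part of these other cells in the results below was not tested.

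**Figure D1:**
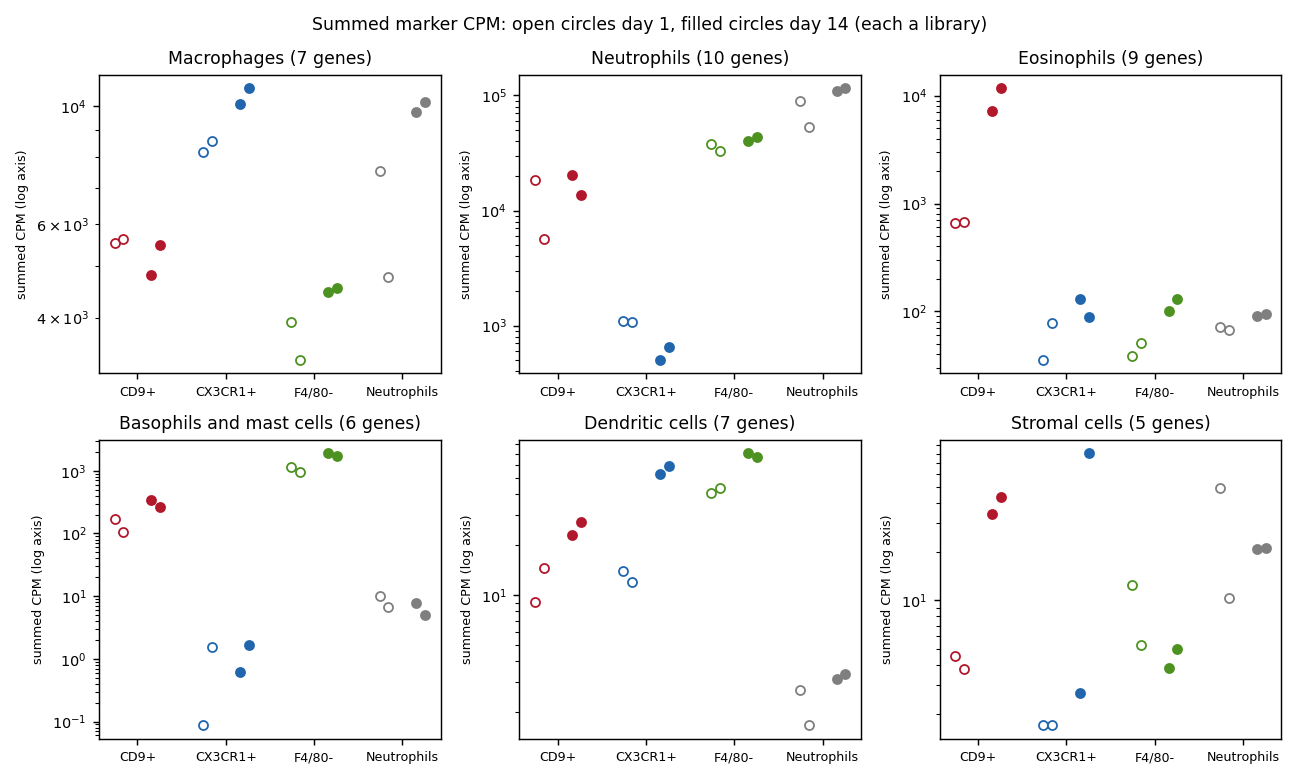
Summed CPM of marker genes (log axis) for 6 cell types in each of the 16 libraries, by population, with open circles for day 1 and filled circles for day 14. The eosinophil sum stands highest in the CD9+ libraries of day 14, at 7233 and 11740 CPM, and the basophil and mast cell sum in the F4/80- libraries, at 968 to 1891 CPM.

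The starts of 5 members are shown, *Stab1* because its change over time differed between the macrophage populations, and *Cbr2*, *Folr2*, *Mgl2* and *Mrc1* because they rose in CD9+ macrophages, as did *Lyve1*. They are given as the 250 bases before and the 50 bases from the RefSeq start site on (GRCm38.p6, the build of the counts). Promoters of 8 of the 9 members were in the RefSeq table used. Capitals mark matches on either strand to GAGGAA, the core recognised by PU.1, to TTCNNNNGAA, the spacing preferred by STAT6, and to TTCNNNGAA, the spacing of other STAT proteins.

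*Cbr2*, chr11:120731972-120732271, minus strand: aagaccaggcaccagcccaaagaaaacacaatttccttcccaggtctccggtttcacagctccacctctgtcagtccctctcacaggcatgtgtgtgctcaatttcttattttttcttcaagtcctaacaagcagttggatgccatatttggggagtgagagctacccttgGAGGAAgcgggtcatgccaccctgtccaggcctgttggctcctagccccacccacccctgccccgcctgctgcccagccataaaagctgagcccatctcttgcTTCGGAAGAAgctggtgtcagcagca

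*Folr2*, upstream start, chr7:101857141-101857440, minus strand: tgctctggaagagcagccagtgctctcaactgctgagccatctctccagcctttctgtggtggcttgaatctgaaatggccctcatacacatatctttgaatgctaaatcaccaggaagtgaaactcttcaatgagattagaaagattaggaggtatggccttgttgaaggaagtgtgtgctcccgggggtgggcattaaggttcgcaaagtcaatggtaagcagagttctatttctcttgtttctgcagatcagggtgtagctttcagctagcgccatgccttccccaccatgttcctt

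*Folr2*, downstream start, chr7:101845282-101845581, minus strand: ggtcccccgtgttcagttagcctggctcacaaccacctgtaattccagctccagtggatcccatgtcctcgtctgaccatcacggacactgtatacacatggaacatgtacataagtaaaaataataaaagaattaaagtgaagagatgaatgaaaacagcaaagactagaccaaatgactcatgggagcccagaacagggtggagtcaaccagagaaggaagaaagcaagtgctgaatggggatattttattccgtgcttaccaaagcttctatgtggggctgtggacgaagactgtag

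*Mgl2*, chr11:70130107-70130406, plus strand: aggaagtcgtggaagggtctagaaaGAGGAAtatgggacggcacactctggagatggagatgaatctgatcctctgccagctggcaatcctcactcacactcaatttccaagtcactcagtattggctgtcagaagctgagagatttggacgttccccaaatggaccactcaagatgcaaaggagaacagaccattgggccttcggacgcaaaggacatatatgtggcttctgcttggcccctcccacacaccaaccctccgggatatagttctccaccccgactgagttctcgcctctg

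*Mrc1*, chr2:14229164-14229463, plus strand: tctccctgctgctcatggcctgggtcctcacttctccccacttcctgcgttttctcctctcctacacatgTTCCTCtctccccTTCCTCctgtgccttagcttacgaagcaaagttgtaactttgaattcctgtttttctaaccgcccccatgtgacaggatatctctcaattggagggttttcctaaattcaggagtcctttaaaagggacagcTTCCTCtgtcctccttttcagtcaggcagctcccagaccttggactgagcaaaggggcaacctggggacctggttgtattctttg

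*Stab1*, chr14:31168592-31168891, minus strand: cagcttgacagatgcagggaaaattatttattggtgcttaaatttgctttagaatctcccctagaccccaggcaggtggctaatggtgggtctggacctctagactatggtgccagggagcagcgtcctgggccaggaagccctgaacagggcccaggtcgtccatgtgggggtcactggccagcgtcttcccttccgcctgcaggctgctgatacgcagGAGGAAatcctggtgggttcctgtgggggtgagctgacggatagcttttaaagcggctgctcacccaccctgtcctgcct

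The PU.1 core was found in 4 of the 8 members, *Mrc1* at 3 places and *Cbr2*, *Mgl2* and *Stab1* at 1, and in 28.3% of the 32851 promoters in the table. *Cd163*, *Chil3*, *Il4ra* and both starts of *Folr2* held none. The STAT6 spacing was found in *Cbr2* alone of the 8 members, 24 to 33 bases after the start base, and in 6.95% of all promoters. The other STAT spacing was found in *Chil3* alone, 172 to 164 bases before the start, and in 8.30% of all promoters. The C/EBP palindrome TTGCNNAA, in 10.8% of all promoters, matched none of the members, and the AP-1 site TGANTCA, in 7.81%, matched only the downstream start of *Folr2*. No 2 of the capitalised matches overlapped. A match gives the letters in the window and nothing on binding.

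Per kilobase of exon, where genes can be set against each other, *Chil3* was the highest member in every group, with group means of 284 to 1528 CPM per kb. In the CD9+ macrophages of day 14, mean CPM per kb was 644 for *Chil3*, 25.9 for *Cbr2*, 18.4 for *Stab1*, 14.9 for *Mrc1*, 11.4 for *Il4ra*, 9.07 for *Folr2*, 6.79 for *Mgl2*, 0.957 for *Lyve1* and 0.538 for *Cd163*. In the CX3CR1+ macrophages of day 14 *Cbr2* stood at 2.33, *Stab1* at 0.657, *Mrc1* at 6.15, *Il4ra* at 13.4 and *Folr2* at 0.209 CPM per kb. *Il4ra* reached 97.3 CPM per kb in the neutrophils of day 1. All values below are in CPM scaled by the trimmed mean of M-values (TMM), which compares libraries and not genes.

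**Figure D2:**
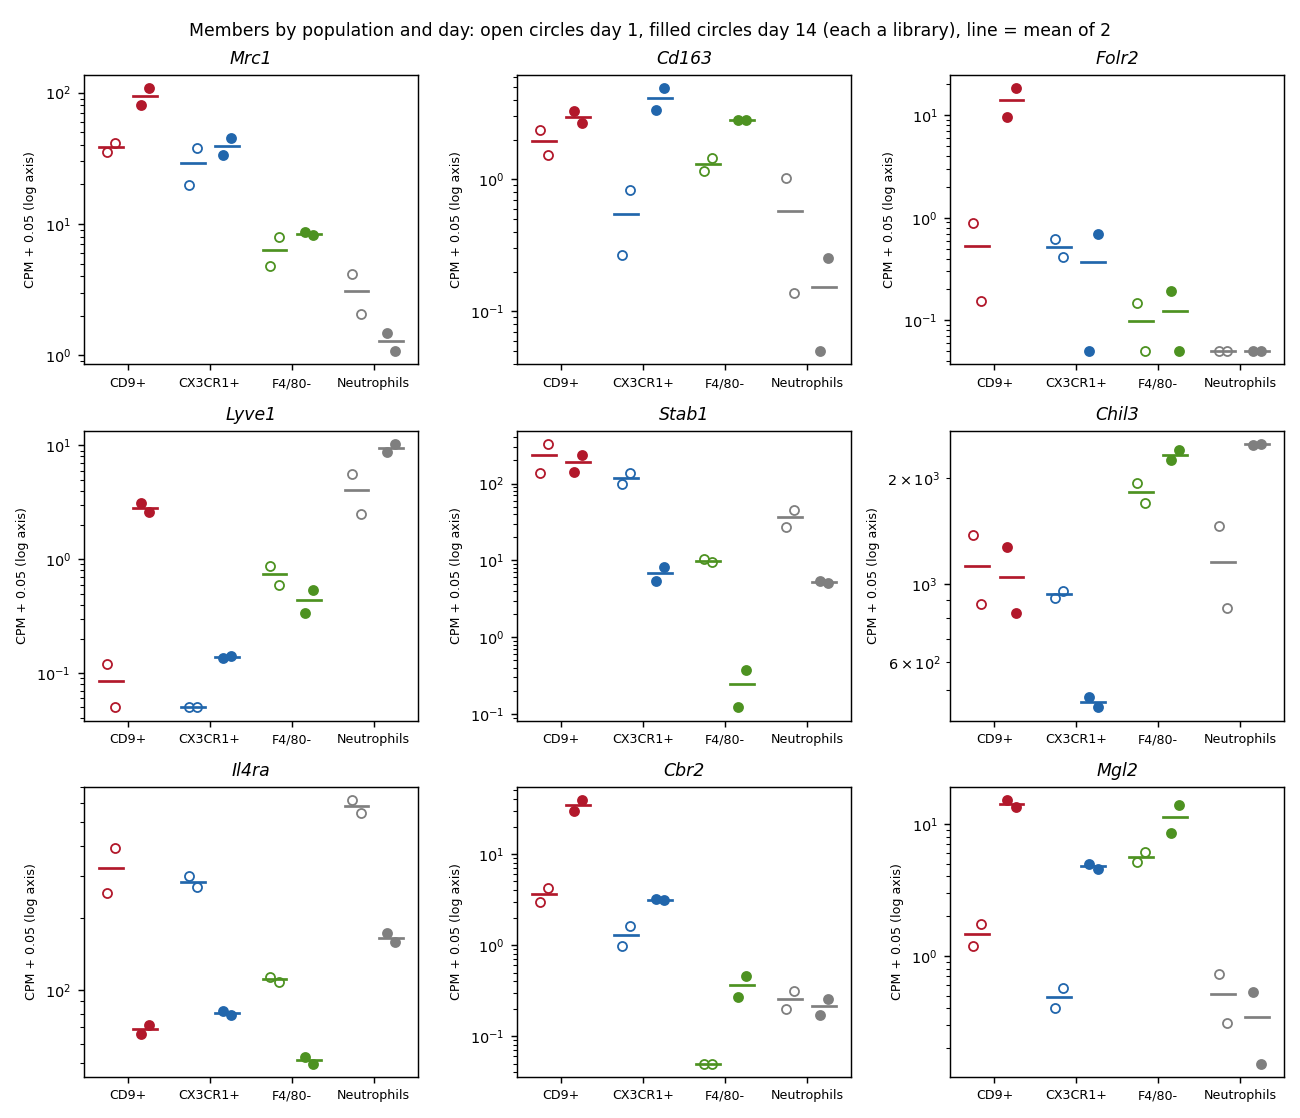
CPM plus 0.05 (log axis) of each of the 9 members in the 16 libraries, by population, with open circles for day 1, filled circles for day 14 and a line for the mean of 2 libraries. *Folr2* and *Cbr2* stand highest in the CD9+ libraries of day 14, *Stab1* overlaps between days in CD9+ macrophages alone, and *Il4ra* is lower on day 14 in every population.

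Mrc1 (ENSMUSG00000026712, chr2:14229392-14332057 on the plus strand, overlapping the microRNA gene Mir511) encodes the mannose receptor CD206, an endocytic lectin. In CD9+ macrophages it measured 35.5 and 41.3 CPM on day 1 against 80.9 and 109 CPM on day 14, in CX3CR1+ macrophages 19.7 and 38.1 CPM on day 1 against 33.4 and 45.0 CPM on day 14. F4/80- cells had 4.72 to 8.70 CPM and neutrophils 1.03 to 4.11 CPM. The CD9+ libraries of day 14 lay above all others, and the ranges of the CX3CR1+ libraries of both days and the CD9+ libraries of day 1 overlapped. *Mrc1* rose in CD9+ macrophages by a log2 fold change of 1.31 (SE 0.31, adjusted p = 0.0101 in edgeR's quasi-likelihood test) and was not called in CX3CR1+ macrophages (0.44, SE 0.31, adjusted p = 0.41). On day 14 it was higher in CD9+ than in CX3CR1+ macrophages by 1.28 (SE 0.31, adjusted p = 0.00657). Without the second CD9+ library of day 14 both calls were lost, the highest adjusted p being 0.0848, and the second was also lost without the first CX3CR1+ library of day 14. The difference between the 2 changes over time, 0.87 (SE 0.44), was not called (adjusted p = 0.35).

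Cd163 (ENSMUSG00000008845, chr6:124304656-124330527 on the plus strand) encodes the scavenger receptor for haptoglobin-hemoglobin complexes. It was low throughout. CX3CR1+ macrophages had 5 and 15 counts on day 1 (0.219 and 0.781 CPM) and 38 and 53 counts on day 14 (3.30 and 4.90 CPM). CD9+ macrophages had 2.33 and 1.47 CPM on day 1 against 3.25 and 2.63 CPM on day 14, and F4/80- cells had 1.12 and 1.42 CPM on day 1 against 2.75 and 2.77 CPM on day 14. Neutrophils had 13 and 1 counts on day 1 against 0 and 2 on day 14. The CX3CR1+ libraries of day 14 were the highest, the lower of them only just above the higher CD9+ library of day 14. *Cd163* rose in CX3CR1+ macrophages by a log2 fold change of 3.04 (SE 0.77, adjusted p = 0.0172), a value of 2.38 without the first and 4.16 without the second library of day 1, and a call lost without the first library of day 1 or the second of day 14, with adjusted p up to 0.157. It was not called in CD9+ macrophages (0.61, SE 0.72, adjusted p = 0.602), between the macrophage populations on day 14 (-0.48, SE 0.70, adjusted p = 0.68) or for the difference between the changes over time (-2.43, SE 1.05, adjusted p = 0.26).

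Stab1 (ENSMUSG00000042286, chr14:31139013-31168641 on the minus strand, overlapping Nt5dc2 on the other strand) encodes stabilin-1, a scavenger receptor that takes up matrix fragments and modified lipoproteins. In CX3CR1+ macrophages it fell from 2282 and 2661 counts (99.9 and 139 CPM) on day 1 to 62 and 88 counts (5.39 and 8.14 CPM) on day 14. In CD9+ macrophages it measured 138 and 328 CPM on day 1 against 140 and 238 CPM on day 14, so that both days overlapped. F4/80- cells went from 212 and 207 counts (10.3 and 9.45 CPM) to 1 and 4 counts (0.0725 and 0.325 CPM), and neutrophils from 27.4 and 45.6 CPM to 5.28 and 5.03 CPM. Between the days the log2 fold change of *Stab1* was -4.14 (SE 0.42, adjusted p = 1.31e-05) in CX3CR1+ macrophages, -5.62 (SE 0.74, adjusted p = 0.000342; -4.88 and -6.91 without the first or second library of day 14) in F4/80- cells and -2.82 (SE 0.43, adjusted p = 0.000197) in neutrophils. In CD9+ macrophages it was -0.30 (SE 0.34, adjusted p = 0.594), not called, and its sign turned when the second library of day 1 or the first of day 14 was left out.

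The difference between the changes of *Stab1* in CD9+ and CX3CR1+ macrophages was itself called, at 3.85 on the log2 scale (SE 0.53, adjusted p = 0.00125), and was the only such call among the members. It ran from 3.35 to 4.603 over the alternative settings, the latter without the second CD9+ library of day 1, and was called in each of them. On day 1 *Stab1* did not pass the threshold between CD9+ and CX3CR1+ macrophages (0.96, SE 0.34, adjusted p = 0.0723), although without the first CD9+ library it was called, and on day 14 it was 4.81 higher in CD9+ macrophages (SE 0.43, adjusted p = 8.02e-07). *Stab2*, the related scavenger receptor of liver endothelium, shared none of the 50-base windows of the *Stab1* transcripts and had 85 counts over all 16 libraries. The 5 endothelial markers in the table summed to 32.7 to 51.9 CPM in CD9+ libraries and to 16.4 to 18.7 CPM in CX3CR1+ libraries. The part of endothelial cells in the *Stab1* levels was not tested.

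Lyve1 (ENSMUSG00000030787, chr7:110850607-110863239 on the minus strand) encodes a hyaluronan receptor of lymphatic endothelium and perivascular macrophages. Its highest counts lay in neutrophils, 74 and 28 on day 1 (5.53 and 2.45 CPM) and 73 and 100 on day 14 (8.76 and 10.3 CPM). CD9+ macrophages had 1 and 0 counts on day 1 against 32 and 25 counts on day 14 (3.06 and 2.53 CPM). CX3CR1+ macrophages had 0 and 0 counts on day 1 against 1 and 1 on day 14. F4/80- cells had 17 and 12 counts on day 1 against 4 and 6 on day 14. The CD9+ libraries of day 14 thus stood above all other macrophage libraries, and overlapped the neutrophils of day 1. *Lyve1* rose in CD9+ macrophages (adjusted p = 0.000895), where the ratio of day 14 to day 1 was 66.4 with a 95% counting interval of 11.4 to 2666. On day 14 it was higher in CD9+ than in CX3CR1+ macrophages (adjusted p = 0.000588), at a ratio of 31.3 with a counting interval of 8.27 to 264. On day 1 neutrophils exceeded CX3CR1+ macrophages at least 27.8-fold, taking 3 counts per library as the floor, and the call was made on both days (adjusted p = 3.58e-06 and 5.44e-06). The change in neutrophils, 1.25 (SE 0.53), was not called (adjusted p = 0.0975). The 5 endothelial markers summed to 29.3 and 23.4 CPM in day 1 neutrophils and to 13.4 and 15.8 CPM in day 14 neutrophils, when *Cdh5* and *Flt4* were at 3 counts or fewer in both. The part of endothelial cells in the *Lyve1* levels was not tested.

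Folr2 (ENSMUSG00000032725, chr7:101839988-101857194 on the minus strand, overlapping the antisense gene Gm10602 and the pseudogene Gm45319) encodes folate receptor beta. CD9+ macrophages had 12 and 1 counts on day 1 (0.846 and 0.105 CPM) and 100 and 183 counts on day 14 (9.57 and 18.5 CPM). CX3CR1+ macrophages had 13 and 7 counts on day 1 against 0 and 7 on day 14, F4/80- cells 0 to 2 counts, and all 4 neutrophil libraries 0. The CD9+ libraries of day 14 were separate from every other group, and below them each group overlapped the next in the order of means. *Folr2* rose in CD9+ macrophages by a log2 fold change of 4.74 (SE 1.01, adjusted p = 0.00649), but DESeq2 did not call it (adjusted p = 0.0732), and it was 6.94 without the first and 4.04 without the second library of day 1. On day 14 it was 5.43 higher in CD9+ than in CX3CR1+ macrophages (SE 1.08, adjusted p = 0.00205). The size of that difference rests on the 0 and 7 counts of the CX3CR1+ libraries and was 4.42 without the first and 10.61 without the second of them, though called in every alternative. The difference between the changes over time, 5.30 (SE 1.51), missed the threshold at an adjusted p of 0.0871 and was called only without the first CD9+ library of day 1, the one with 12 counts. Against neutrophils on day 14 the excess in CD9+ macrophages was at least 42.0-fold. The *Folr2* transcripts shared no 50-base window with *Folr1* or *Izumo1r*.

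Mgl2 (ENSMUSG00000040950, chr11:70130329-70137550 on the plus strand) encodes the galactose-type lectin CD301b, known in macrophages stimulated by interleukin-4 and in a subset of dendritic cells. Its levels rose in both macrophage populations. CD9+ macrophages went from 16 and 16 counts (1.13 and 1.68 CPM) to 158 and 132 (15.1 and 13.3 CPM), and CX3CR1+ macrophages from 8 and 10 counts (0.3502 and 0.521 CPM) to 57 and 49 (4.95 and 4.53 CPM). F4/80- cells had 5.06 and 6.07 CPM on day 1 against 8.55 and 13.8 CPM on day 14, and neutrophils 0.103 to 0.673 CPM. The CD9+ and F4/80- libraries of day 14 overlapped at the top of the order. The rise was 3.36 on the log2 scale (SE 0.46, adjusted p = 0.000223) in CD9+ and 3.43 (SE 0.50, adjusted p = 0.000322) in CX3CR1+ macrophages, while the change in F4/80- cells, 1.00 (SE 0.40), was not called (adjusted p = 0.166). CD9+ exceeded CX3CR1+ macrophages by 1.66 (SE 0.54, adjusted p = 0.0482) on day 1 and by 1.58 (SE 0.41, adjusted p = 0.00951) on day 14, and 10 of the 14 alternatives lost the former call and 3 the latter. With the replicate number within each day as a block, the day 1 difference was 1.66 and not called (adjusted p = 0.0635). The sources used here do not say that this number marks the pool. The dendritic cell marker *Cd209a* also rose from day 1 to day 14, by 2.80 (SE 0.42, adjusted p = 0.000454) in CD9+ and 2.75 (SE 0.38, adjusted p = 0.000204) in CX3CR1+ macrophages. Of the 5 dendritic cell markers tested it was the only 1 called in CD9+ macrophages, where 4 were not called (median 0.53). In CX3CR1+ macrophages 4 of the 5 rose (median 2.57). *Cd209a* was also called higher in F4/80- cells, where *Mgl2* was not called and the other 4 markers were not (median 1.09). *Mgl2* shares 13.5% of its 50-base transcript windows with *Clec10a*, whose reads the counting could split, so that part of its count is uncertain. *Clec10a* took another course, with 12.8 and 14.0 CPM on day 1 against 10.2 and 8.69 CPM on day 14 in CD9+ macrophages and 12.04 and 12.6 CPM on day 1 against 18.6 and 21.7 CPM on day 14 in CX3CR1+ macrophages.

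Chil3 (ENSMUSG00000040809, chr3:106147554-106167564 on the minus strand) was abundant in all populations, with 4830 counts or more in every library. CD9+ macrophages had 1377 and 876 CPM on day 1 against 1277 and 826 CPM on day 14, with no separation between days. CX3CR1+ macrophages fell from 913 and 957 CPM to 480 and 447 CPM, the lowest group of all. F4/80- cells had 1937 and 1703 CPM on day 1 against 2256 and 2400 CPM on day 14, and neutrophils rose from 1463 and 853 CPM to 2486 and 2500 CPM. The log2 fold change was -1.01 (SE 0.25, adjusted p = 0.0147) in CX3CR1+ macrophages and 1.11 (SE 0.25, adjusted p = 0.00408) in neutrophils. It was -0.10 (SE 0.25, adjusted p = 0.822) in CD9+ macrophages and 0.35 (SE 0.25, adjusted p = 0.476) in F4/80- cells, neither called. The call in CX3CR1+ macrophages was lost without any 1 of its 4 libraries, with a log2 fold change of -1.08 to -0.96 and an adjusted p of up to 0.128 over all alternatives, and the call in neutrophils was lost without the second library of day 1. On day 14 CD9+ exceeded CX3CR1+ macrophages by 1.18 (SE 0.25, adjusted p = 0.00244), not called without the first CD9+ library of day 14. In CD9+ macrophages of each day the library with the higher sum of neutrophil markers, 18480 against 5675 CPM on day 1 and 20460 against 13670 CPM on day 14, was also the one with more *Chil3*. The same order held on both days in F4/80- cells and in neutrophils, and the reverse order on both days in CX3CR1+ macrophages. The part of neutrophils in the *Chil3* levels was not tested. *Chil4*, its close paralog, shares 17.9% of the 50-base windows of *Chil3* and had 87 counts over all 16 libraries. How reads shared by both were counted is not given in the sources used here.

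Il4ra (ENSMUSG00000030748, chr7:125552120-125579474 on the plus strand, overlapping the antisense gene Gm44876) encodes the chain shared by the receptors for interleukin-4 and interleukin-13. It was lower on day 14 in all 4 populations, with no overlap between days in any. Neutrophils fell from 619 and 549 CPM to 173 and 159 CPM, CD9+ macrophages from 255 and 392 CPM to 65.8 and 71.4 CPM, CX3CR1+ macrophages from 298 and 269 CPM to 82.3 and 79.0 CPM, and F4/80- cells from 114 and 108 CPM to 52.8 and 49.5 CPM. The log2 fold changes were -2.24 (SE 0.17, adjusted p = 1.45e-06) in CD9+ macrophages, -1.81 (SE 0.17, adjusted p = 6.41e-06) in CX3CR1+ macrophages, -1.12 (SE 0.17, adjusted p = 0.000834) in F4/80- cells and -1.82 (SE 0.17, adjusted p = 1.18e-06) in neutrophils. No alternative setting lost any of these 4 calls. *Il4ra* was the only member called in one direction in every population, and the macrophage populations did not differ by a called amount on either day.

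Cbr2 (ENSMUSG00000025150, chr11:120729489-120732114 on the minus strand) encodes a carbonyl reductase. CD9+ macrophages had 42 and 40 counts on day 1 (2.96 and 4.21 CPM) and 311 and 387 counts on day 14 (29.8 and 39.1 CPM). CX3CR1+ macrophages had 21 and 30 counts on day 1 (0.919 and 1.56 CPM) and 36 and 33 counts on day 14 (3.13 and 3.05 CPM). F4/80- cells had 0 and 0 counts on day 1 against 3 and 5 on day 14, and neutrophils 1 to 3 counts in each library. The CD9+ libraries of day 14 lay far above the rest, and the CD9+ libraries of day 1 overlapped the CX3CR1+ libraries of day 14. *Cbr2* rose by 3.27 on the log2 scale (SE 0.38, adjusted p = 8.19e-05) in CD9+ macrophages and was called in every alternative. It rose by 1.32 (SE 0.40, adjusted p = 0.0453) in CX3CR1+ macrophages, a call that 6 of the 14 alternatives lost, among them leaving out any of its 4 libraries. It was called in F4/80- cells too (adjusted p = 0.0174), a call that 4 of the 14 alternatives lost, and no fold is given because both days lay near the floor. CD9+ exceeded CX3CR1+ macrophages by 1.52 (SE 0.40, adjusted p = 0.0193) on day 1, a call lost without the second CD9+ or the first CX3CR1+ library, and by 3.47 (SE 0.39, adjusted p = 1.21e-05) on day 14. The difference between the changes over time, 1.95 (SE 0.55), was not called (adjusted p = 0.0768) but was under DESeq2, under scaling by library size only and without the second CD9+ library of day 1. On day 1 the excess over F4/80- cells was at least 25.35-fold in CD9+ and at least 8.77-fold in CX3CR1+ macrophages.

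**Figure D3:**
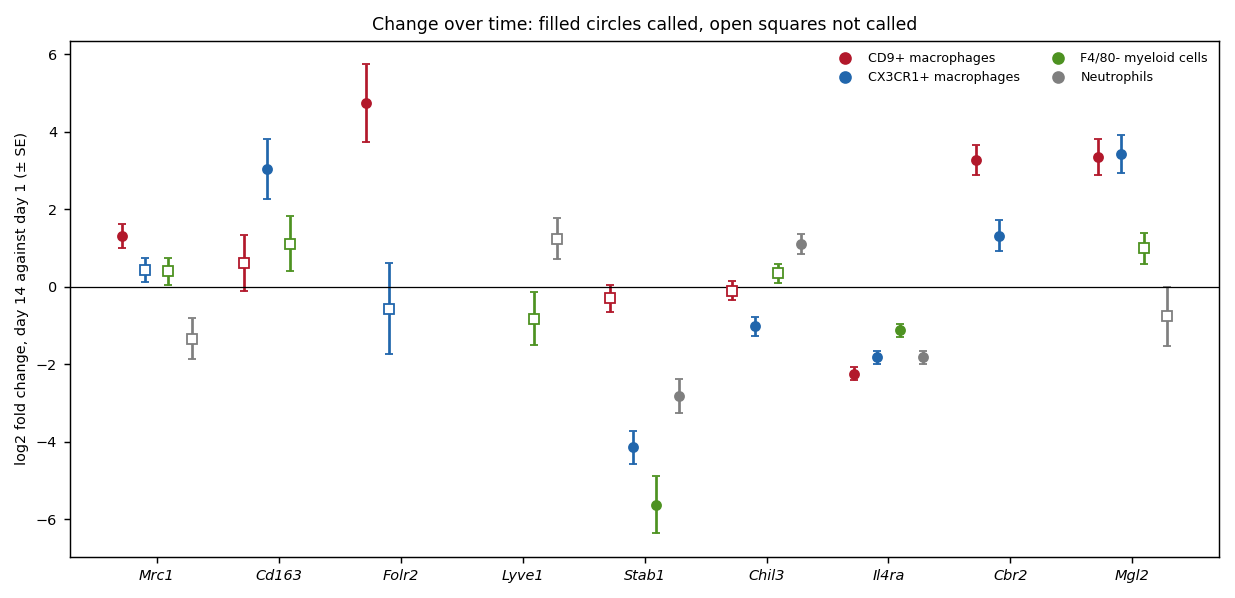
Log2 fold change from day 1 to day 14 with its SE for each member in the 4 populations, as filled circles where called and open squares where not, leaving out members at 3 counts or fewer in both libraries of a day. *Il4ra* is called lower in all 4 populations and *Stab1* in 3, while in CD9+ macrophages *Stab1* is at -0.30 and not called.

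Over time 5 of the 9 members rose in CD9+ macrophages (*Mrc1*, *Folr2*, *Lyve1*, *Cbr2* and *Mgl2*) and 1 fell (*Il4ra*), where 4.75% of all genes tested were called higher and 3.48% lower. In CX3CR1+ macrophages 3 rose (*Cd163*, *Cbr2* and *Mgl2*) and 3 fell (*Stab1*, *Chil3* and *Il4ra*), against 2.39% and 3.47% of all genes. In F4/80- cells 1 was called higher (*Cbr2*) and 2 lower (*Stab1* and *Il4ra*), against 1.01% and 2.24%. In neutrophils 1 rose (*Chil3*) and 2 fell (*Stab1* and *Il4ra*), against 3.15% and 10.9%. The median log2 fold change of the 9 members was 1.31 in CD9+ macrophages, 0.44 in CX3CR1+ macrophages, 0.41 in F4/80- cells and -0.76 in neutrophils (-0.67 with members at the floor set to their bound), beside medians of -0.02 to 0.03 over all genes. Without the first library of day 1 or the second of day 14, 3 members were called in CX3CR1+ macrophages instead of 6.

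The difference between the changes over time in CD9+ and CX3CR1+ macrophages was called higher for 1 member, *Stab1*, and lower for 0, with 1.34% and 0.933% of all genes called. At an unadjusted p under 0.05 in edgeR, 4 members were higher and 1 lower. DESeq2 called 2 members higher, *Stab1* and *Cbr2*, and 0 lower.

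Between the macrophage populations on day 1, CD9+ cells were higher for 2 members (*Cbr2* and *Mgl2*) and lower for 0, against 6.36% and 1.88% of all genes, and 0 to 3 members were called when 1 library was left out. With the replicate number as a block, which the sources do not tie to the pool, *Cbr2* was the 1 member called on day 1. On day 14 they were higher for 7 members (*Mrc1*, *Folr2*, *Lyve1*, *Stab1*, *Chil3*, *Cbr2* and *Mgl2*) and lower for 0, against 9.65% and 4.55%. Depending on the library left out, the calls of *Mrc1*, *Chil3* or *Mgl2* were lost, while those of *Folr2*, *Lyve1*, *Stab1* and *Cbr2* held. At an unadjusted p under 0.05 in edgeR 0 members were lower in CD9+ cells on either day, and DESeq2 called 0 lower. The member medians were 0.96 on day 1 (0.87 with a member at the floor set to its bound) and 1.58 on day 14, beside 0.04 and 0.01 over all genes. These comparisons use the same libraries as those over time. The CD9+ libraries of day 14 were called higher than the CX3CR1+ libraries in all 9 eosinophil markers. Within them *Mrc1*, *Folr2*, *Stab1* and *Cbr2* were higher in the library with the larger eosinophil sum, while *Lyve1*, *Mgl2* and *Chil3* were higher in the other. The library with the larger eosinophil sum also had larger macrophage, dendritic cell, stromal and osteoclast sums, and smaller neutrophil and basophil sums. An order of 2 libraries cannot tell these apart, and the part of eosinophils was not tested. On that day CD9+ macrophages were also called higher than CX3CR1+ macrophages in all 3 osteoclast markers tested, and in 1 of the 4 stromal markers tested, *Pdgfrb*.

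**Figure D4:**
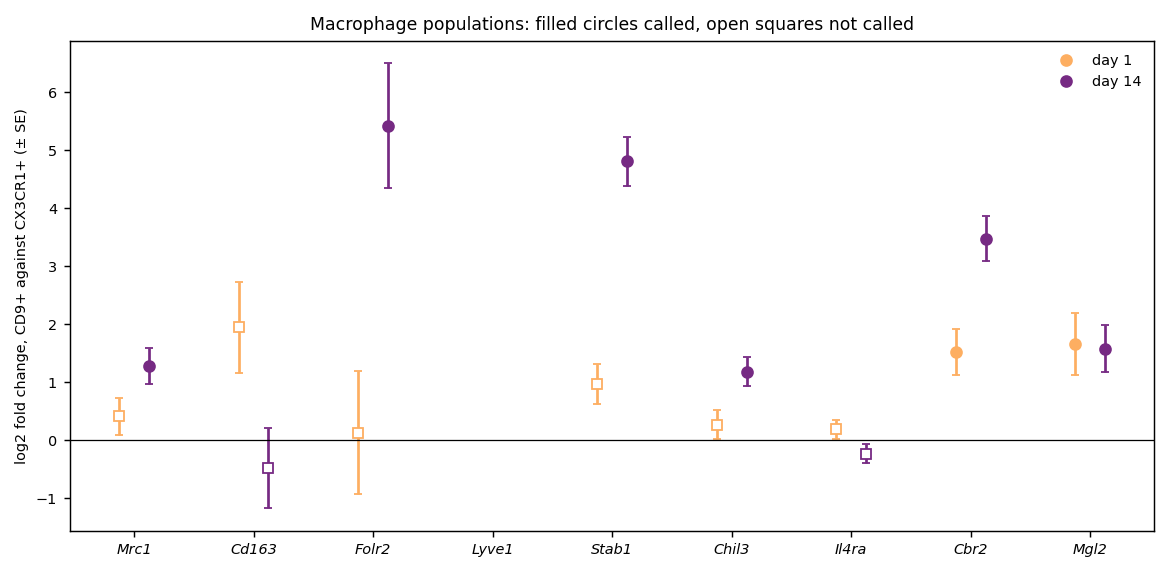
Log2 fold change of CD9+ against CX3CR1+ macrophages with its SE on day 1 and day 14, as filled circles where called and open squares where not, leaving out *Lyve1*, which was at 3 counts or fewer in the CX3CR1+ libraries. On day 14 *Stab1*, *Folr2* and *Cbr2* stand at 4.81, 5.43 and 3.47, and *Il4ra* and *Cd163* are not called.

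Against F4/80- cells on day 1, CD9+ macrophages were higher for 4 members (*Mrc1*, *Stab1*, *Il4ra* and *Cbr2*) and lower for 2 (*Lyve1* and *Mgl2*), against 9.23% and 6.16% of all genes, and on day 14 higher for 5 (*Mrc1*, *Folr2*, *Lyve1*, *Stab1* and *Cbr2*) and lower for 1 (*Chil3*), against 6.59% and 1.11%. CX3CR1+ macrophages were higher than F4/80- cells for 4 members on day 1 (*Mrc1*, *Stab1*, *Il4ra* and *Cbr2*) and lower for 2 (*Lyve1* and *Mgl2*), against 10.2% and 10.9%, and on day 14 higher for 3 (*Mrc1*, *Stab1* and *Cbr2*) and lower for 2 (*Chil3* and *Mgl2*), against 11.1% and 10.4%. Both sets of comparisons share the F4/80- libraries. *Mrc1* was higher by 2.59 and 3.49 in CD9+ and by 2.18 and 2.22 in CX3CR1+ macrophages on days 1 and 14. *Mgl2* was lower than in F4/80- cells by -2.004 (SE 0.45, adjusted p = 0.00388) in CD9+ and by -3.66 (SE 0.49, adjusted p = 2.75e-05) in CX3CR1+ macrophages on day 1, and F4/80- cells also held the highest dendritic cell sum, 40.4 and 43.8 CPM on that day.

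Against neutrophils on day 1, CD9+ macrophages were higher for 5 members (*Mrc1*, *Folr2*, *Stab1*, *Cbr2* and *Mgl2*) and lower for 1 (*Lyve1*), beside 27.9% and 21.7% of all genes, and on day 14 higher for 6, now with *Cd163*, and lower for 3 (*Lyve1*, *Chil3* and *Il4ra*), beside 29.6% and 19.9%. CX3CR1+ macrophages were higher for 4 (*Mrc1*, *Folr2*, *Stab1* and *Cbr2*) and lower for 2 (*Lyve1* and *Il4ra*) on day 1, beside 26.9% and 24.1%, and higher for 4 (*Mrc1*, *Cd163*, *Cbr2* and *Mgl2*) and lower for 3 (*Lyve1*, *Chil3* and *Il4ra*) on day 14, beside 27.1% and 20.9%. *Mrc1* was higher by 3.62 and 6.27 in CD9+ and by 3.21 and 4.99 in CX3CR1+ macrophages on days 1 and 14, and the day 1 values were 4.26 and 3.84 without the first neutrophil library. The calls of *Folr2* on day 1 rest on 12 and 1 counts in CD9+ and 13 and 7 counts in CX3CR1+ macrophages against 0 in neutrophils, and each was lost under 5 of the 14 alternatives, DESeq2 among them. On day 14 the median of the members in CX3CR1+ macrophages against neutrophils was 4.04, or 0.39 with the 4 members at the floor set to their bound. *Il4ra* was lower in CX3CR1+ macrophages by -1.04 on both days, a value close to the threshold that scaling by library size only took to -0.47 on day 1 while moving the median of all genes by 0.57.

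Other genes of the same pathways were counted from lists, whole and whatever their values. The shares of all genes called higher and lower over time were 4.75% and 3.48% in CD9+ and 2.39% and 3.47% in CX3CR1+ macrophages. They were 1.01% and 2.24% in F4/80- cells and 3.15% and 10.9% in neutrophils. In the pathway from the interleukin-4 and interleukin-13 receptors, 12 genes were tested, and over time 0 rose and 2 fell in CD9+ macrophages, *Il13ra1* (-1.54, SE 0.17) and the kinase *Jak3* (-1.35, SE 0.16), while 0 were called in CX3CR1+ macrophages or F4/80- cells and 5 fell in neutrophils, led by *Il13ra1* (-2.86, SE 0.17) and *Jak3* (-2.32, SE 0.16). At an unadjusted p under 0.05 in edgeR, 2 of the listed genes were higher and 6 lower in CD9+ macrophages, 1 was higher and 2 were lower in CX3CR1+ macrophages and in F4/80- cells, and 0 were higher and 6 lower in neutrophils. DESeq2 called 2 higher and 2 lower in CD9+ macrophages, 0 in CX3CR1+ macrophages and F4/80- cells, and 0 higher and 5 lower in neutrophils. The medians of the list were -0.42, -0.01, -0.01 and -0.79. The cytokine *Il4* itself was counted mainly in F4/80- cells, 267 and 180 counts on day 1 against 91 and 108 on day 14, and in CD9+ macrophages, 24 and 9 counts on day 1 against 42 and 41 on day 14, with 0 to 2 counts in every CX3CR1+ and neutrophil library. The basophil and mast cell markers were highest in the same F4/80- libraries.

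Of 14 other genes of alternative activation, 2 rose and 3 fell in CD9+ macrophages and 3 rose and 4 fell in CX3CR1+ macrophages (medians -0.37 and 0.14). Arginase *Arg1*, the enzyme that competes with nitric oxide synthase for arginine, fell in both, with log2 fold changes of -5.95 (SE 0.24, adjusted p = 1.46e-09) in CD9+ and -8.67 (SE 0.31, adjusted p = 2.48e-10) in CX3CR1+ macrophages, from 2173 and 2594 CPM to 33.4 and 43.9 CPM in the former. The lipoxygenase *Alox15* rose in both, by 1.91 (SE 0.21) and 1.13 (SE 0.34), and stood at 367 and 496 CPM in the CD9+ macrophages of day 14 against 3.21 and 2.41 CPM in the CX3CR1+ macrophages. The transcription factor *Irf4* rose by 1.497 (SE 0.43) and 2.71 (SE 0.41). Transglutaminase *Tgm2* fell, with -1.85 (SE 0.28) and -4.25 (SE 0.31). These changes were not confined to the macrophage populations. In F4/80- cells 2 of the 14 genes were called, both lower, *Arg1* and *Tgm2* (median -0.14). In neutrophils 1 rose, *Alox15*, and 7 fell, *Arg1* and *Tgm2* among them (median -1.52).

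Of 18 other genes of resident macrophages, 3 rose and 4 fell in CD9+ macrophages and 0 rose and 9 fell in CX3CR1+ macrophages (medians 0.24 and -0.88). In F4/80- cells 2 were called, both lower (*C1qb* and *Maf*, median -0.87). In neutrophils 9 were called, all lower, *C1qa*, *C1qb* and *C1qc* among them (median -1.77). In CX3CR1+ macrophages 1 was higher at an unadjusted p under 0.05 in edgeR, and DESeq2 called 1 higher. In CD9+ macrophages the growth factors *Gas6* and *Igf1* rose by 4.75 (SE 0.69) and 3.95 (SE 0.55) and the adhesion molecule *Vcam1* by 3.53 (SE 0.36), while *Spic*, a transcription factor of iron-recycling macrophages, fell, with -2.24 (SE 0.58). Of the 4 stromal markers tested, 2 rose in the same comparison, *Col3a1*, from 0 and 0 counts to 74 and 137, and *Pdgfrb*, from 0 and 10 counts to 75 and 75 (median of the 4, 3.27), and of the 3 osteoclast markers 0 were called. In CX3CR1+ macrophages *Col3a1* and *Col1a1* were called higher, *Col3a1* having 0 and 329 counts on day 14. The part of stromal cells in these changes was not tested. In CX3CR1+ macrophages the complement genes *C1qa*, *C1qb* and *C1qc* fell, with -2.91 (SE 0.50), -3.55 (SE 0.44) and -2.87 (SE 0.42), as did the receptor *Mertk* with -3.61 (SE 0.62). The difference between the populations over time was called higher for *Gas6* (5.40), *C1qb* (3.90), *C1qc* (3.79), *C1qa* (3.45) and *Vcam1* (3.26), and lower for *F13a1* (-1.55). *Timd4*, a receptor of long-lived resident macrophages, had at most 2 counts in each macrophage library, and *Vsig4* had 31 and 15 counts in the CD9+ macrophages of day 14 and at most 1 in the other macrophage libraries. On day 14 10 of the 18 genes were higher in CD9+ than in CX3CR1+ macrophages and 1 lower (median 2.32), against 9.65% and 4.55% of all genes. Of 10 classical monocyte genes 0 were higher and 6 lower in the same comparison (median -1.38), among them *Ccr2* by -2.30 (SE 0.23). Of the monocyte genes 0 were higher at an unadjusted p under 0.05 in edgeR, and DESeq2 called 0 higher.

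The genes whose group means of log2 CPM followed a member most closely over the 8 groups are given as a description, since the groups share libraries and depth. For *Mrc1* these were *Tppp3* (Pearson r = 0.989), *Lpl* (0.983) and *Bod1* (0.981). For *Folr2* they were *Gas6* (0.985), *AI427809* (0.981) and *Dpysl3* (0.974). *Cbr2* was followed by the eosinophil marker *Ear6* (0.968), *Cd300e* (0.939) and *Eya4* (0.936). *Stab1* was followed by *Slc37a2* (0.965), *Pdpn* (0.958) and *Creg2* (0.938), and *Lyve1* by *Gm15675* (0.994), *Sema4f* (0.981) and *Xkr8* (0.976). For *Cd163* these were *Snhg8* (0.968), *Slc20a2* (0.967) and *Fancf* (0.963), and for *Mgl2* *Kcnk12* (0.965), *Chn2* (0.964) and *Kctd14* (0.961). *Chil3* was followed by *Plrg1* (0.970), *Zdhhc16* (0.956) and *Fkbp5* (0.951), and *Il4ra* by *Adamtsl4* (0.991), *Zbtb17* (0.987) and *Golm1* (0.975). Among the members the closest pair was *Folr2* with *Cbr2* (r = 0.9003) and the most opposed was *Il4ra* with *Mgl2* (r = -0.834).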

How the data were processed

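Bulk RNA was sequenced from 16 libraries (SMART-Seq Stranded kit, no molecular identifiers). Per the labels and methods, the authors trimmed adapters, aligned reads to mm10 and counted exonic reads per Gencode M23 gene with STAR, and deposited raw counts. The strand setting of the counting is not given in the sources used here. Counts were fitted in R 4.3.3 with edgeR 4.0.16 (quasi-likelihood test, 1 mean per group over all 16 libraries, TMM scaling), keeping genes with a mean of at least 3 CPM in at least 1 group. Adjusted p-values are Benjamini-Hochberg over 11998 genes, and calls required both adjusted p below 0.05 and a fold of 1 or more on the log2 scale in size. The SE is the size of the log2 fold change over the square root of F. The steps were tested on simulated data. Since 16 separate pools of 5 mice would need more than the 30 mice used, the populations of a day share pools. The main fit held no term for pools. Same-numbered libraries of a day were taken as paired only in the replicate blocks, which were alternatives. The sources do not say that the number marks the pool, and the deviations of such libraries correlated at 0.0132 to 0.144 (12 pairs of groups, 3 over 0.1). Alternatives used DESeq2 1.42.0, other scalings, filters and blocks, and left out each library. Levels per kilobase used exon lengths of Gencode M21. Folds against counts of 0 used a floor of 3 counts per library, and intervals cover counting error only. Every member is named. Of the other lists, up to 6 called genes with the largest changes, and genes a sentence turns on, are named, with the 3 genes most like each member. Members and lists were chosen with earlier results of these data known.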

Additional observations from a re-analysis of the deposited data

Results flagged for a closer look

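*Stab1* stood out because its change from day 1 to day 14 differed between CD9+ and CX3CR1+ macrophages by a tested 3.85 on the log2 scale (SE 0.53, adjusted p = 0.00125 in edgeR's quasi-likelihood test). *Chil3* was called in opposite directions over time, at -1.01 in CX3CR1+ macrophages and 1.11 in neutrophils, and the difference between these changes was not tested.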

How the results depend on the processing

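Of 79 calls of members (55 higher and 24 lower) among 135 tests, 51 were lost under no alternative. The 6 members called over time in CX3CR1+ macrophages became 3 to 4 when 1 library was left out. The 2 called between CD9+ and CX3CR1+ macrophages on day 1 became 1 under library size only, upper-quartile factors, filterByExpr, no filter and both replicate blocks, 0 with only the groups compared, and 0 to 3 without 1 library. The 6 called between CX3CR1+ macrophages and neutrophils on day 1 became 3 with only the groups compared. The 1 called for the difference of the time changes became 2 under DESeq2 and library size only, and 1 to 3 without 1 library. In CD9+ macrophages over time *Stab1* turned to 0.46 and 0.06 without the second library of day 1 or the first of day 14, with a range of -0.79 to 0.46, and *Chil3* to 0.081 under library size only and to 0.27 and 0.18 without the first library of day 1 or the second of day 14, with a range of -0.44 to 0.27. The cause was not tested.

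The replicate block within each day changed no call of a member other than that of *Mgl2* between CD9+ and CX3CR1+ macrophages on day 1. Over all libraries it also made *Mrc1* called over time in neutrophils.

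Scaling by library size only moved the median of all genes by -0.28 to 0.57, by over 0.1 in 8 comparisons, and lost 6 calls of members. The share of calls that were higher went from 57.7% to 72.9% over time in CD9+ macrophages, from 77.2% to 55.0% for CD9+ against CX3CR1+ macrophages on day 1, from 56.2% to 68.2% and 59.8% to 78.2% for CD9+ macrophages against neutrophils on days 1 and 14, from 52.8% to 72.3% and 56.5% to 73.7% for CX3CR1+ macrophages against neutrophils, and from 59.0% to 82.5% for the difference of the time changes (69.1% under upper-quartile factors). For CD9+ macrophages against F4/80- cells on day 1 it fell to 39.4%, where 1108 of the calls had been higher and 739 lower. Over all genes, only the groups compared gave 145 higher and 163 lower against 570 and 418 over time in CD9+ macrophages, 238 and 362 against 121 and 269 in F4/80- cells, 285 and 42 against 763 and 225 for CD9+ against CX3CR1+ macrophages on day 1, 744 and 289 against 1108 and 739 for CD9+ macrophages against F4/80- cells on day 1, and 96 and 60 against 161 and 112 for the difference of the time changes, for which DESeq2 gave 270 and 169. Dropping the minimum fold change raised the count over 1.5 times in 10 comparisons. Counts of 3 or fewer limit *Lyve1* in the CD9+ and CX3CR1+ libraries of day 1, *Folr2* in 1 CD9+ library of day 1, and both, with *Cbr2*, in other groups. They also occurred for *Cd163* and *Mgl2* in neutrophil libraries and for *Stab1* in 1 F4/80- library of day 14.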
